A study of Mus musculus with 8 samples.

Results

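The regions described here are stretches of open chromatin that were detected in granulosa cells before the ovulatory hormone signal and in none of the libraries taken after it. They were chosen by the deposited peak calls: the intervals of all 8 peak lists on chromosomes 1 to 19 and X were merged where they shared 1 bp or more, and a region was kept if it had a peak in both PMSG lists and in none of the 6 hCG, WT and KO lists. Of 98245 merged regions, 51990 had a peak in both PMSG lists (PMSG-held regions), and 1650 of these were PMSG-only by this rule. Because presence and absence chose them, the lack of a peak after hCG is their definition and was not tested, and absence of a called peak does not show that a site was closed.

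The assay was ATAC-seq, in which the transposase Tn5 inserts sequencing adapters into DNA that nucleosomes leave free. Mice were 21 days old and received 5 IU of eCG, a gonadotropin that drives follicle growth and is also named PMSG, and were sampled 46 h later or given 5 IU of hCG at that time and sampled after 6 h. The PMSG and hCG groups (2 libraries each) were wild-type F1 mice of a cross of CBA with C57BL/6. The WT and KO groups (2 libraries each, the PR libraries) were of strain C.129S7(B6)-Pgrtm1Bwo/OmcJ, wild type or knockout for the progesterone receptor (PR), and were all taken after hCG per the design text and their time tags, although their source name is pre-ovulatory. Each library pooled 2 to 3 mice, every group had received eCG, and no PMSG library of the PR strain was analysed here. The comparison of PMSG with the PR libraries therefore also compares strains and experiments, which cannot be told apart, whereas the comparison with the hCG libraries lies within 1 strain. The time tags contradict the titles, since libraries titled hCG are tagged 0 h and those titled PMSG 6 h. For the PMSG and hCG libraries the titles, which their source names match, were followed here.

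Granulosa cells surround the oocyte, divide under FSH-like stimulation and make oestradiol from androgen. The surge of luteinising hormone, which hCG stands in for, makes them leave the cell cycle, turn to progesterone synthesis and take part in ovulation. Open sites away from gene starts are commonly enhancers, DNA elements bound by transcription factors that act on genes at a distance, and they vary more between cell states than sites at gene starts.

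At gene starts, 15 PMSG-only regions overlapped the window from 250 bases before to 50 bases after a start, of 7 coding and 9 lncRNA genes (RefSeq, GRCm38.p6, the assembly named mm10 by the submitters' processing notes). The 4 coding genes with the strongest regions are shown because there the PMSG-only sequence lies in the window of a gene start. The region at Col6a4, chr9:106096589-106097036, covered its whole window (chr9:106096642-106096941, minus strand), with an authors' fold, the enrichment of a peak over the caller's background, of 10 in PMSG replicate 1 and 10.7 in replicate 2. That at Gm826, chr2:160327323-160327547, covered 103 bases of the window at chr2:160327445-160327744 (minus strand; 7.06 and 9.64). That at 1700019N19Rik, chr19:58794375-58794601, covered 227 bases of the window at chr19:58794365-58794664 (minus strand; 8.21 and 6.66). That at Fam25c, chr14:34355446-34355636, covered 191 bases of the window at chr14:34355344-34355643 (minus strand; 6.27 and 6.34). Capitals mark the bases inside the PMSG-only region, 5′ to 3′ along the gene:
Col6a4: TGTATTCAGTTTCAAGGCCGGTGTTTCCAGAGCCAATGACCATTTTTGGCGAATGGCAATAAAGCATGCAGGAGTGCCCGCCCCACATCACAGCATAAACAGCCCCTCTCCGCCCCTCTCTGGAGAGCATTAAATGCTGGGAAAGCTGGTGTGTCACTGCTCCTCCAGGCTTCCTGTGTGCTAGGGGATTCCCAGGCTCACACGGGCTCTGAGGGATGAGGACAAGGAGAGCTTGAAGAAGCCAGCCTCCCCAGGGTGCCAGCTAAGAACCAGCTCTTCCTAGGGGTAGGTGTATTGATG
Gm826: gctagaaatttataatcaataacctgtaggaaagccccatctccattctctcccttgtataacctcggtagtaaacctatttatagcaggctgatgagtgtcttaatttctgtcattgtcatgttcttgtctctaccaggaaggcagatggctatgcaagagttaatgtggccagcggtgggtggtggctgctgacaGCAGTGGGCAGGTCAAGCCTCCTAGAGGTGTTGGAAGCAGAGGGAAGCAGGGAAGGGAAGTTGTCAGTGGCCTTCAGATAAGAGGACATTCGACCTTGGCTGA
1700019N19Rik: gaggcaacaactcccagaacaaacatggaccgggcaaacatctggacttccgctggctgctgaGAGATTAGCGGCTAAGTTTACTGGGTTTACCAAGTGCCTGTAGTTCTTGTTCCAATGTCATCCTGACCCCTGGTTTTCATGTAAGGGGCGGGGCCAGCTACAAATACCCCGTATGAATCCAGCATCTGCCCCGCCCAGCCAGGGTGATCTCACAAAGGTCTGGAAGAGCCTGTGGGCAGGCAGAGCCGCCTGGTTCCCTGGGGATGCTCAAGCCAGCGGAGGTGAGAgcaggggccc
Fam25c: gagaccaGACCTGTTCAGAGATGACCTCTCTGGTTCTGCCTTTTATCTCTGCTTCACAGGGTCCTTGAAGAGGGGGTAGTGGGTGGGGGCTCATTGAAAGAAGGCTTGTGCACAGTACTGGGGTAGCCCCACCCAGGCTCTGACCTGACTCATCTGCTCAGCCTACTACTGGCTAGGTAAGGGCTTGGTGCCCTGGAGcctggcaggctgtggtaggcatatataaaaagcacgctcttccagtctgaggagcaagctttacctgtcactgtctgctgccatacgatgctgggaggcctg

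Short motifs were searched as exact letters on both strands of these windows. The KLF and SP letters GGGCGGG occurred once in the Col6a4 window and 2 times in the 1700019N19Rik window, and are found in 25.6% of the 32851 windows of the table. The letters AGATAA, bound by the family of GATA factors, occurred in the Gm826 and Fam25c windows and in 11.2% of all windows. The Fam25c window also held the AP-1 letters TGANTCA (7.81% of all windows), the SMAD letters CAGACA (21.0%) and the RUNX letters TGTGGT (16.8%). In that window the GATA and AP-1 matches lie inside the PMSG-only region, and the SMAD and RUNX matches lie outside it. The NR5A letters TCAAGGTCA (0.423%), the C/EBP letters TTGCNNCAA (2.08%), the CRE letters TGACGTCA (1.79%), the TCF letters TTTGAT (11.9%) and the TEAD letters GGAATG (14.7%) were in none of the 4. Nor were the FOXO letters GTAAACA (3.65%), the NFI letters TTGGCA (14.1%) and the steroid receptor letters ACANNNTGT (6.85%). No motif's letters contain those of another, and a match is a description of letters, not a bound site.

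The other 3 coding starts were weaker. Arhgef16, a guanine nucleotide exchange factor gene, had folds of 5.42 and 4.91, Serpina3a, a serine protease inhibitor gene, 3.44 and 3.29, and Zeb2, a transcriptional repressor gene, 2.89 and 3.17. They covered 271, 65 and at most 32 bases of the windows. No miRNA hairpin of 1005 lay within 1 kb of a PMSG-only region.

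The lists held between 55654 intervals (KO replicate 2) and 84313 (WT replicate 2), the PMSG lists 57992 and 58780. Read depth is unknown. The calls chose the regions, and 2 libraries against 2 cannot give an exact permutation p under 0.33, so values are given as descriptions, and Wilson 95% intervals of shares cover counting over regions only. The labelled cell type was checked at gene starts: both PMSG lists had a peak over the start of Foxl2, Fshr and Cyp19a1, 3 of the 5 granulosa markers with a start in the table, but not of Inha or Nr5a2. Of markers of other cells, endothelial Kdr (1 of 4) and smooth-muscle Acta2 (1 of 2) had one, and none of 5 theca and stroma, 3 immune and 5 oocyte markers did. In cell pools, fewer cells with a site open and less opening per cell cannot be told apart.

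PMSG-only regions made up 3.17% of the 51990 PMSG-held regions, and that count depended on single libraries, WT replicate 1 most of all. Of PMSG-held regions, 37189 (71.5%) were held by all 6 post-hCG lists, and between 2293 and 3256 by each number of lists from 1 to 5. A further 2445 regions (4.70%) missed the rule by a single list. In 2050 of these the single list was WT replicate 1, in 143 WT replicate 2, in 94 hCG replicate 1, in 77 KO replicate 2, in 54 hCG replicate 2 and in 27 KO replicate 1. WT replicate 1 thus held most regions just outside the rule, and without that library the PMSG-only count was 3734 (7.17% of PMSG-held regions). WT replicate 2, whose list is longer, took away 143 regions. Without PMSG replicate 1 or 2, so that a peak in the other alone was enough, the count was 2793 or 2781.

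**Figure D1:**
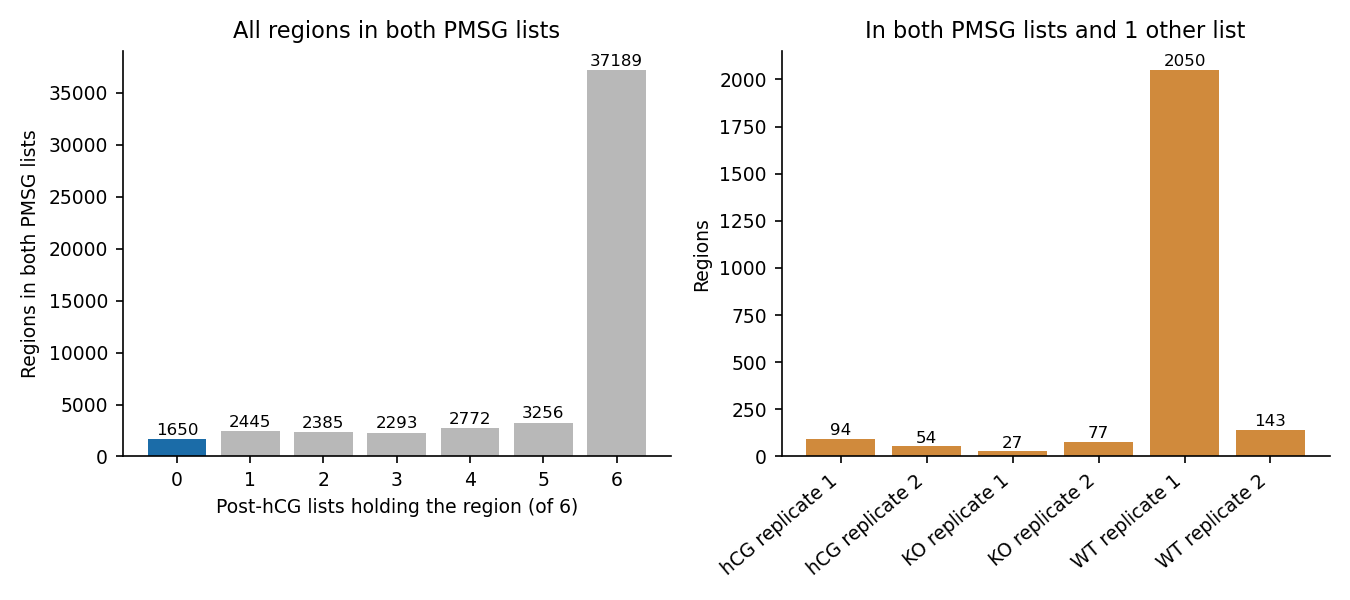
Left, number of regions in both PMSG lists (y axis) by the number of the 6 post-hCG lists that also held them (x axis), with the 1650 PMSG-only regions in blue. Right, regions held by both PMSG lists and a single other list, by that list: WT replicate 1 accounts for 2050.

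The same split was seen among all PMSG-held regions with no peak in the hCG libraries of the same strain. Of 8338 PMSG-held regions in neither hCG list, WT replicate 1 held 6354 (76.2%), WT replicate 2 held 3799 (45.6%), KO replicate 2 held 2847 (34.1%) and KO replicate 1 held 1731 (20.8%). The 4 PR lists together held 1103 (13.2%), and the 1650 PMSG-only regions (19.8%) were those that none of them held. Both WT lists held more of them than both KO lists, and the WT lists were also the longer ones (80137 and 84313 intervals against 58851 and 55654). The part of list length in this order was not tested.

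The same rule was applied to the other groups. The hCG pair, with longer lists than the PMSG pair (65567 and 62327 intervals), alone held 1018 regions (1.75% of 58320 hCG-held regions), both WT lists 3899 (5.55% of 70229) and both KO lists, about as long as the PMSG lists, 28 (0.0567% of 49355). With the best 55654 intervals by fold from every list, PMSG-only regions numbered 3548 (7.10% of 49994 PMSG-held regions). In that setting 1653 regions were particular to both hCG lists (3.23%), 854 to both WT lists (1.77%) and 556 to both KO lists (1.17%). Equal lists thus gave the PMSG pair the highest count of the 4 pairs, and with all intervals the WT pair had the highest. The pairs are not equivalent under the rule, since the PMSG pair alone was taken before hCG. Each other pair had to lack a peak in further post-hCG libraries, and the WT and KO pairs also share a strain. The order of the 4 counts therefore does not rank the groups. Of the 1650 PMSG-only regions, 1479 (89.6%) were found again in the equal lists.

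PMSG-only regions were mostly weak peaks. Since the rule asked for a peak in both PMSG lists, values on how the replicates compare describe regions already chosen for being found in both. The fold had a lowest value of 2.16, a median of 6.57 and a highest of 18.5 in PMSG replicate 1, and 1.83, 6.69 and 19.8 in replicate 2. Other PMSG-held regions had medians of 10 and 10.4. Ranked within a list from 0 (weakest) to 100, PMSG-only regions had median percentiles of 24.6 and 24.3, against 56.1 and 56.7 for the others. The folds in the 2 replicates lay within 1.5 times of each other for all but 47 regions (2.85%), and across the 1650 regions their log2 values had a Pearson r of 0.813, a description over regions that share both libraries. All but 5 regions were 1 interval in each list (1645), and the best summits of the replicates lay a median of 20 bp apart, within 50 bp for 1357 regions (82.2%). In the other PMSG-held regions the summits lay closer, a median of 11 bp apart and within 50 bp in 88.5%, and 22 PMSG-only regions had summits over 200 bp apart.

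Width and shape also set them apart from the rest of the PMSG-held regions. Their median merged width was 265 bp, with a range of 143 to 1060 bp, against 732 bp for the others, which merge up to 8 lists. Within the PMSG lists alone their intervals had medians of 228 and 223 bp, where all intervals of those lists had medians of 422 and 412 bp. A single summit in both lists was found for 1410 regions (85.5%) and for 68.6% of the others. The 1018 regions of the hCG pair, also chosen as private to 1 group, had a median width of 280 bp and a median percentile of 22.4, close to the 265 bp and 24.2 of the PMSG-only regions.

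The PMSG-only share fell with peak strength. It was between 8.16% and 8.76% in steps of 10 up to mean percentile 30, 3.12% between percentiles 40 and 50, and 0.0535% (3 of 5603) above percentile 90. Peaks near the cut-off of the lists, a −log10 q of 10, were a minority: 1527 regions (92.5%) had a −log10 q of 12 or more in both lists, 766 (46.4%) of 20 or more and 267 (16.2%) of 30 or more. The 123 regions just inside, under 12 in a PMSG list, had a median fold of 5.36. Just outside, 1114 regions were in PMSG replicate 1 alone of all 8 lists (median fold 5.74) and 1122 in PMSG replicate 2 alone (5.78).

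**Figure D2:**
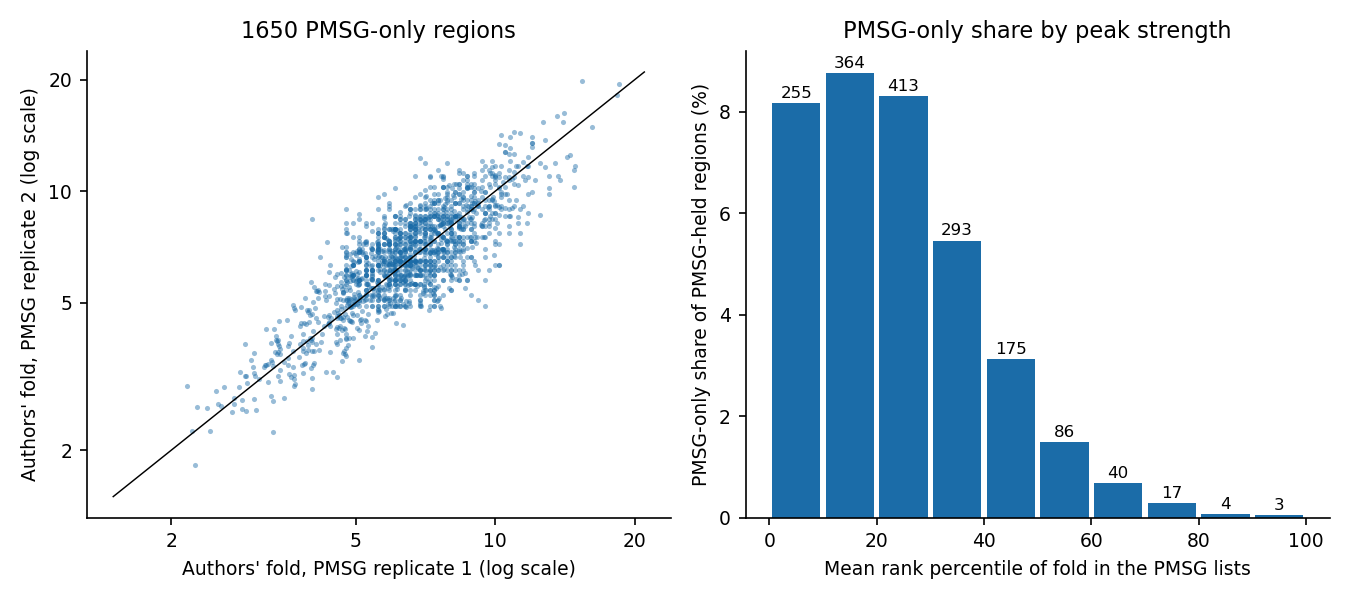
Left, the authors' fold of the PMSG-only regions in PMSG replicate 1 (x axis) and replicate 2 (y axis), both on log scales, with the line of equality. Right, the PMSG-only share of PMSG-held regions by mean rank percentile in steps of 10, with the number of PMSG-only regions above each bar: the share is 8.76% between percentiles 10 and 20 and 0.0535% above 90.

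Position in the genome, which the rule did not use, set these regions apart from the other PMSG-held ones. Few were at gene ends, taken as 1 kb or less between a region's midpoint and either end of a protein-coding gene: 36 of 1650 (2.18%, Wilson 95% interval 1.58 to 3.01), against 12169 of the 50340 other PMSG-held regions (24.2%, 23.8 to 24.5). Using gene starts themselves, 7 regions (0.424%, 0.206 to 0.873) overlapped the window around a coding start, against 10126 others (20.1%). The intervals of the 2 sets do not overlap in either measure. Without WT replicate 1 the gene-end share was 2.46%. With the best 20000 intervals of every list it was 13.3%, among regions that include only 23 of the 1650.

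Distance to genes was graded. The PMSG-only share of PMSG-held regions was 0.295% (36 of 12205) within 1 kb of a gene end, 2.94% between 1 and 10 kb, 3.43% between 10 and 50 kb, 4.64% between 50 and 100 kb, and 7.18% (452 of 6293) beyond 100 kb. The median distance was 38.1 kb, against 12.3 kb for the other PMSG-held regions, and 817 regions (49.5%) lay inside a coding gene, against 62.6%. Exons and introns could not be told apart with the gene table used.

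Weak PMSG-held peaks were less often at gene ends than the strongest, so the shares were also set side by side at equal strength. Between percentiles 20 and 30, 2.42% of 413 PMSG-only regions (1.32 to 4.40) and 9.10% of the others were at a gene end. Between percentiles 40 and 50 the values were 0.571% (0.101 to 3.17), which is 1 region of 175, and 12.7%. Up to percentile 10 they were 4.71% (2.71 to 8.04) and 12.2%, and between percentiles 50 and 60 they were 3.49% (1.19 to 9.76) and 17.0%. The stronger PMSG-only regions lay farther out: the median distance was 15.9 kb up to percentile 10, 39.2 kb between percentiles 10 and 20, and 129 kb between percentiles 60 and 70 (40 regions), where the others had 14.6 kb. Among the others the median was highest between percentiles 20 and 30, at 20.9 kb, and fell to 0.307 kb above percentile 90, so the strong peaks of the 2 sets lay in different places.

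**Figure D3:**
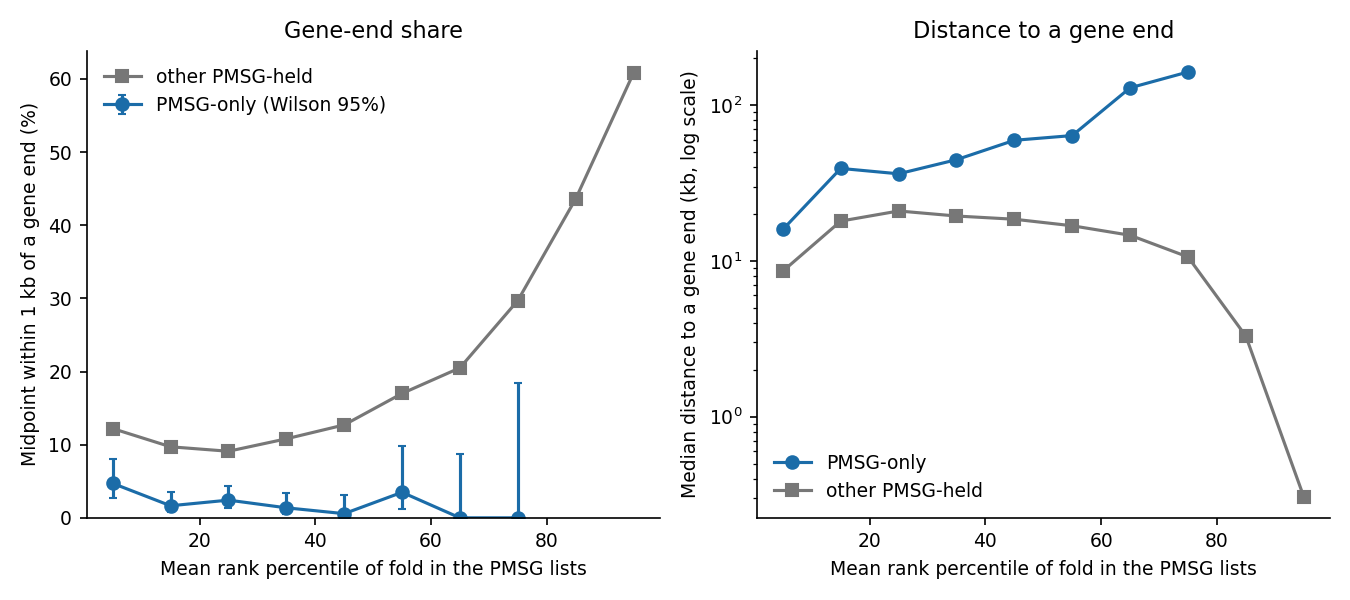
Left, the percent of regions with a midpoint within 1 kb of a gene end (y axis) by mean rank percentile of fold in the PMSG lists (x axis), for PMSG-only regions (blue, Wilson 95% intervals) and other PMSG-held regions (grey). Right, the median distance to a gene end in kb on a log scale. Steps with under 10 PMSG-only regions are left out of the blue series, which goes from 15.9 to 163 kb, while the grey series ends at 0.307 kb.

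Other sets that differ between groups were distal as well. Of the 6688 PMSG-held regions in neither hCG list but in 1 or more PR lists, 2.98% (2.59 to 3.41) were at a gene end, and of the 5780 regions held by all 6 post-hCG lists and neither PMSG list 3.08% (2.66 to 3.56). The intervals of both overlap that of the PMSG-only regions. The share beyond 100 kb was 27.4% for PMSG-only regions, 23.5% and 19.3% for those 2 sets, 14.0% for the 1018 regions of the hCG pair and 9.22% for regions held by all 8 lists.

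Regions that had a peak after hCG alone lay farther from PMSG-only regions than from other PMSG-held ones. A region held by all 6 post-hCG lists and neither PMSG list lay within 50 kb of 422 PMSG-only regions (25.6%) and of 33.3% of the other PMSG-held regions, with median distances of 147 and 93.4 kb. The nearest interval of any post-hCG list lay a median of 6239 bp away. It lay within 500 bp for 80 regions (4.85%) and beyond 10 kb for 649 (39.3%). The 255 weakest, up to percentile 10, had it at a median of 1.82 kb and the 150 above percentile 50 at 13.6 kb.

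Chromosomes differed in their PMSG-only share, from 2.29% of PMSG-held regions on chromosome 8, 2.30% on chromosome 7 and 2.39% on chromosome 4 to 4.07% on chromosome 14, 4.20% on chromosome 3 and 4.24% on chromosome 13. On the X it was 3.60% (49 of 1360). Over the 20 chromosomes the share tended to be lower where more PMSG-held regions were at gene ends (Pearson r = -0.602, Spearman coefficient = -0.539, a description over chromosomes that share the same libraries). The X departed from this, with the highest gene-end share of the 20, 29.9%. Of the PMSG-only regions, 124 (7.52%) lay within 20 kb of another, in 60 runs, of which 4 had 3 members. Runs of other PMSG-held regions were not counted.

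The strongest PMSG-only regions were mostly far from coding genes. The region with the best mean percentile, chr12:35182767-35183007 (mm10), lay 35.4 kb from an end of Snx13, a sorting nexin gene, with folds of 18.5 and 19.5 in PMSG replicates 1 and 2. The next, chr16:54577228-54577675, lay 647 kb from Zpld1 (18.3 and 18.2), and chr13:10741525-10741882 lay 381 kb from Chrm3, a muscarinic acetylcholine receptor gene (15.4 and 19.8). The summits of the replicates were 6, 1 and 10 bp apart in these 3, and no post-hCG interval lay within 9.17, 22.5 and 179 kb of them. Both replicates were high at all 3, at percentile 86.7 or above.

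Next in order, chr1:8855458-8855901 lay inside Sntg1, a syntrophin gene, 446 kb from its ends (16.2 and 14.9). It was the only one of the best 10 inside a coding gene. The region at chr18:41138432-41139135 lay 592 kb from Kctd16, which codes for an auxiliary subunit of GABA-B receptors (14.1 and 16.3), and 508 kb from any post-hCG interval, the farthest of the 10. The region at chr1:21280417-21280778 was the closest to a gene end, 15.0 kb from Gsta3, a glutathione transferase gene (14.0 and 15.4). The other 4 were chr2:101472834-101473035 near Iftap (13.6 and 16.0), chr14:39972195-39972942 near the neuregulin gene Nrg3 (12.7 and 15.4), chr14:85926497-85927121 near the formin gene Diaph3 (14.5 and 12.5) and chr12:96642685-96643202 near Flrt2 (14.3 and 12.4).

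**Figure D4:**
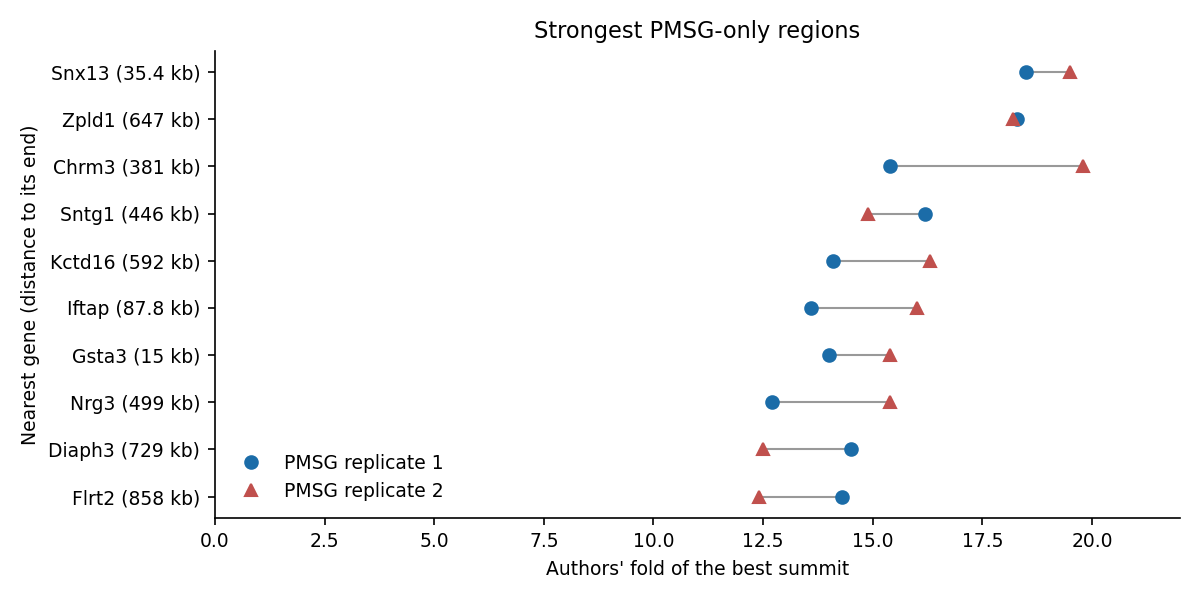
The authors' fold (x axis) of the 10 PMSG-only regions with the best mean rank, in PMSG replicate 1 (circles) and replicate 2 (triangles), named by the nearest coding gene with the distance to its end. All values lie between 12.4 and 19.8, and none of the 6 post-hCG lists has a peak in these regions.

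The weakest were of another kind. The region with the lowest rank, chr8:70700595-70700828, lay 0.0950 kb from an end of Jund, an AP-1 transcription factor gene, with folds of 2.25 and 1.83 but −log10 q of 32.1 and 15.3. A post-hCG interval lay 0.396 kb away. The next 2 lay inside Tsc22d1, 0.178 kb from such an interval, and inside Fam160b1, 1.17 kb from one. Of the 255 regions up to percentile 10, 73 (28.6%) had a post-hCG interval within 1 kb, against 4 of the 150 above percentile 50 (2.67%).

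Of the 21631 coding genes, 16668 had a PMSG-held region inside or within 10 kb. A PMSG-only region so placed was found for 985, with 2 or more at 96 and 3 or more at 18. So close to a gene lay 983 of the PMSG-only regions, and the matching number of other PMSG-held regions is not given here. Genes with the most are given first, and their shares are read beside the 3.17% of all PMSG-held regions. Pde11a, which codes for a phosphodiesterase that degrades cAMP and cGMP, had 5 among its 19 PMSG-held regions (26.3%). All 5 lay inside the gene on chromosome 2, at 76087386, 76218924, 76254932, 76286416 and 76319487, with folds of 6.08, 7.55, 8.05, 7.86 and 5.91 in replicate 1 and 5.23, 7.01, 7.71, 9.82 and 7.19 in replicate 2. Robo2, a receptor for Slit guidance proteins that spans 1555 kb, had 5 of 34 (14.7%), spread from chr16:74103907 to 75118361, with folds between 6.02 and 9.03 in replicate 1 and between 6.31 and 8.35 in replicate 2. None of these 10 regions had a mean percentile above 50. Robo2 had 10 of 34 without WT replicate 1, and also with equal lists, whereas Pde11a had 6 in both settings.

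Other genes with many members were mostly long. Csrnp3, of a family of nuclear proteins that activate transcription, had 4 of 18 PMSG-held regions, Frmd4b, a scaffold protein gene, 4 of 20, and Macrod2, an ADP-ribosylhydrolase gene of 1998 kb, 4 of 29. The Macrod2 region at chr2:141388747-141389027 was among the strong ones, with folds of 12.5 and 11.9, and without WT replicate 1 Macrod2 had 7 of 29. Sfmbt2, a Polycomb group gene, had 3 of 6, with folds of 8.70 and 10.5 at chr2:10560433-10560768. Otogl, known from the inner ear, had 3 of 8 (37.5%), the highest share among the 940 genes with 8 or more PMSG-held regions. Its 3 regions formed a run of 22.2 kb in which every PMSG-held region was PMSG-only.

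Adamts12, a secreted metalloprotease gene, and Zfhx3, a homeobox transcription factor gene, had 3 of 11 each (27.3%), and Akap6, which codes for an anchor of protein kinase A, had 3 of 13. With 2 of 8 each (25%) followed Bmp1, a procollagen protease gene, Bmpr2, a type II BMP receptor gene, Cdh12, Kif6, Ptk2, the focal adhesion kinase gene, and Ptpn4. Both Bmpr2 regions lay just outside the gene, 2.60 and 4.67 kb from its end, and were weak, with folds of 3.00 and 3.35 at the first and 3.02 and 2.75 at the second. Adamts12, Zfhx3 and Macrod2 also had 3 regions each that were held by all 6 post-hCG lists and neither PMSG list, and Pde11a, Csrnp3, Frmd4b, Sfmbt2 and Otogl had 0. Other runs of 3 lay 9.56 to 25 kb from Dusp6, a phosphatase gene that acts on ERK, 8.30 to 28.2 kb from Arl8b, and inside Utrn. Of the runs of 2, the one with the highest mean percentile lay 83.8 and 85.0 kb from Sis, with folds of 11.1 and 9.48 at its stronger region.

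Among genes with 2 or more PMSG-held regions, every such region was PMSG-only in 5, with 2 of 2 in each. These are named after their values were seen. The number of genes with 2 or more PMSG-held regions is not given here, and 16668 had 1 or more. The 5 therefore cannot be set against a background share. They were Col6a4, a collagen VI chain gene, Gata1, a blood-lineage transcription factor gene, Tyr, the tyrosinase gene of pigment synthesis, Drd2, a dopamine receptor gene, and Vtcn1, an immune checkpoint ligand gene. The Gata1 regions, chrX:7979237-7979513 and chrX:7983255-7983510, lay 2.71 and 6.72 kb outside the gene, with folds of 7.83 and 8.81 at the first and 7.23 and 6.86 at the second. The Tyr regions lay side by side, at chr7:87481254-87481518 and chr7:87481997-87482197, 234 and 235 kb from any post-hCG interval.

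Genes known for granulosa cell function before the surge held PMSG-only regions at about the share of all PMSG-held regions. Of the 30 on the pre-surge list, 5 had any, and 6 of their 215 PMSG-held regions were PMSG-only (2.79%, Wilson 95% interval 1.29 to 5.95), against 3.17% of all. Without WT replicate 1 they had 11 of 216 (5.09%), against 7.17% of all. Cyp19a1, which codes for aromatase, the enzyme of oestradiol synthesis, had 1 of 7, inside the gene at chr9:54234570-54234803, with folds of 9.03 and 9.29 and summits at the same base. It was the strongest on this list by fold and had no post-hCG interval within 6.56 kb. Igf1r, the IGF1 receptor gene, had 2 of 18, with folds of 7.0 and 5.31 at the first and 4.05 and 4.21 at the second.

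Inhba, the gene of the inhibin and activin beta-A subunit, had 1 of 8, at chr13:16027419-16027709, but with folds of only 2.90 and 3.17 and a post-hCG interval 0.298 kb away. Grb14, an adaptor that restrains insulin receptor signalling, had 1 of 10 (2.53 and 2.67), and Prkar2b, a regulatory subunit of protein kinase A, 1 of 10 (3.10 and 3.11). Fshr, Foxl2, Esr2, Foxo1, Nr5a2, Inha and Lhcgr were among the 25 with none.

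The list of genes induced by the surge had 2 PMSG-only regions among 110 (1.82%, 0.50 to 6.39). These were in Tnfaip6, a gene of the hyaluronan matrix around the oocyte, 1 of 4 (8.55 and 6.90), and in Runx1, a transcription factor gene, 1 of 12 (5.23 and 4.49). Cell cycle genes had 5 of 92 (5.43%, 2.34 to 12.1): Cdk6, a G1 kinase gene, 3 of 18, Rb1, the retinoblastoma gene, 1 of 4, and Mcm2, a replication licensing gene, 1 of 6. The Rb1 region had folds of 8.87 and 9.11. The region counted for Mcm2 lay inside the neighbouring Tpra1 and was weak (2.85 and 2.59), and 27 of the 30 cell cycle genes, Ccnd2 and Cdkn1b among them, had none.

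TGF-beta and BMP pathway genes had 7 of 173 (4.05%, 1.97 to 8.12), in Bmpr2 with 2 and in Tgfbr3, Acvr1, Acvr1c, Bmp6 and Chrdl1 with 1 each. The strongest of them, in the ligand gene Bmp6, had folds of 7.49 and 8.65. Wnt and Hippo genes had 1 of 120 (0.833%, 0.147 to 4.57), in Lef1, a transcription factor of the Wnt pathway (5.58 and 7.13). FSH signalling and kinase genes had 3 of 177 (1.69%, 0.578 to 4.86), in the adenylyl cyclase gene Adcy9 (4.57 and 4.78), in the kinase anchor gene Akap13 (6.31 and 5.80) and at Prkar2b. For these 6 lists the interval includes the 3.17% of all PMSG-held regions. Of the 6 lists, the count of the cell cycle list alone stayed within 1.5 times under every alternative run. Its share, above that of all PMSG-held regions in the main setting, was 5 of 93 (5.38%) without WT replicate 1, below 7.17%. With equal lists it was 5 of 81 (6.17%), below 7.10%. The LH-induced list had 6 of 210 (2.86%) when regions within 50 kb of its genes were counted. Without WT replicate 1 the TGF-beta and BMP list had 12 of 174 (6.90%), the Wnt and Hippo list 5 of 120 (4.17%) and the FSH signalling list 6 of 177 (3.39%), against 7.17% of all PMSG-held regions. With equal lists the Wnt and Hippo list had 7 of 114 (6.14%) and the FSH signalling list 8 of 165 (4.85%), against 7.10%.

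Cell adhesion and guidance genes had 17 of 265 (6.42%, 4.04 to 10), spread over 11 of 30 genes. Robo2 had 5, Slit3, which codes for a Slit ligand of the Robo receptors, 3 of 20, and genes with 1 each included Robo1, Cdh2, Ctnna2, Ctnnd2, Nrxn3, Sema3a, Epha7 and Tenm3. The Slit3 regions had folds of 6.48, 7.06 and 6.26 in replicate 1 and 5.96, 7.54 and 5.95 in replicate 2, and the Sema3a region 8.19 and 8.56. Its genes are long, with a median of 465 kb against 40.1 kb for the pre-surge list. Of its PMSG-held regions, 189 lay over 50 kb from a gene end, and 14 of these (7.41%) were PMSG-only, against 716 of 11977 (5.98%) among all PMSG-held regions so far out. Without WT replicate 1 the list had 40 of 265 (15.1%), against 7.17% of all PMSG-held regions, and with equal lists 39 of 256 (15.2%), against 7.10%. These values were not set side by side at equal distance, and Robo2 supplied 10 of the regions in either setting.

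**Figure D5:**
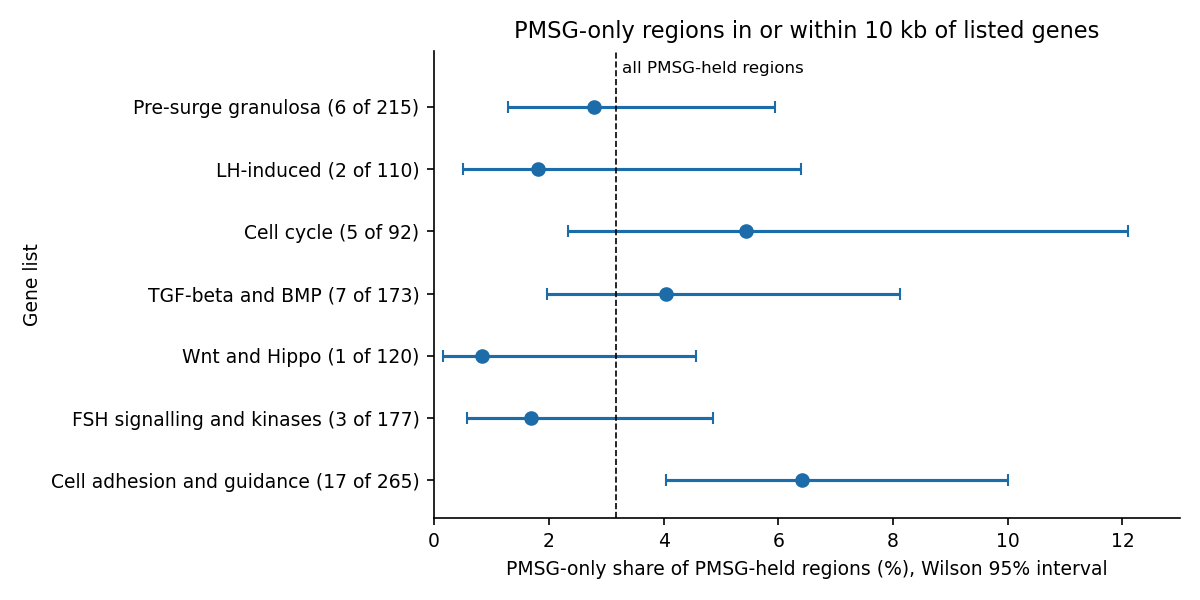
Percent of PMSG-held regions that were PMSG-only (x axis) in or within 10 kb of the genes of 7 lists, with Wilson 95% intervals and, in brackets, PMSG-only and PMSG-held regions. The dashed line is the 3.17% of all PMSG-held regions, and only the interval of the adhesion and guidance list, whose genes are the longest, lies above it.

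Granulosa markers held 1 PMSG-only region among 45 PMSG-held ones (2.22%, 0.393 to 11.6), that of Cyp19a1. At markers of other cells the counts were 0 of 21 at theca and stroma markers, 0 of 12 at immune, 0 of 7 at oocyte and 0 of 6 at smooth-muscle markers, and 1 of 12 at endothelial markers (8.33%, 1.49 to 35.4), inside Tek (7.23 and 6.14). All of these intervals include the 3.17% of all PMSG-held regions, so the classes cannot be told apart by these counts. With so few regions, shares of up to 15.5% at theca and stroma markers and 39.0% at smooth-muscle markers lie within the Wilson intervals. The part of other cells in the PMSG-only set was not tested.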

How the data were processed

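ATAC-seq peak lists of 8 libraries were used, 1 per library, grouped by title (2 PMSG, 2 hCG, 2 WT, 2 KO). The submitters' processing notes name Bowtie2, MACS2 and mm10, and versions, filters and Tn5 shifting are not given in the sources used here. Peak names of the PR lists, unlike those of the LH lists, begin with words for filtered reads and marked duplicates. The authors deposited a fold (linear ratio) per summit in column 7 and −log10 of p and q in columns 8 and 9. The deposited score in column 5 was not analysed. Folds described and ranked peaks within a list and were set side by side between the PMSG replicates, and −log10 q was also a filter in an alternative. Summits sharing an interval were counted as 1 interval with its best fold.

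Intervals on chromosomes 1 to 19 and X were merged at 1 bp of overlap (Python 3.11.15, pandas 2.3.3, SciPy 1.17.1), and the rule was tested on simulated data. Percentiles of fold are within a list and were averaged over the 2 PMSG lists. Distances are from a region's midpoint to the nearest end of a protein-coding gene (RefSeq, GRCm38.p6, 21631 genes, all listed symbols matched). Regions were counted for a gene inside it or within 10 kb. Coordinates count from 1. Named were the 10 regions of best mean percentile, the 10 genes with most members, the 10 with the highest share among genes with 8 or more PMSG-held regions, the 5 largest runs (gaps up to 20 kb, ties broken by mean percentile), listed genes with a member, and gene starts overlapped. The name of 1 listed gene with a member is not reported here. Members and lists were chosen with earlier results of these data known. No test was run, since the calls chose the members. Regions on chromosome Y and contigs were left out; none of 21 there was in both PMSG lists alone.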

Additional observations from a re-analysis of the deposited data

How the results depend on the processing

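Overlap rules moved the member count little: 1568 with intervals merged within 500 bp and 1705 with a stricter overlap, relative to the shorter interval. Keeping peaks from a −log10 q of 20 upwards gave 1488, of which only 766 were among the 1650 (46.4% of them), so the like count covers other regions. The same number of intervals from every list gave 3548 members (7.10% of PMSG-held regions, median percentile 25.9). The best 20000 intervals gave 1856 (10.4%), with a gene-end share of 13.3% and a median percentile of 75.2, and only 23 of the 1650 were among them, so that setting describes other regions. Leaving out 1 library gave between 1680 (KO replicate 1) and 3734 (WT replicate 1) members, shares of 3.23% to 7.17%, gene-end shares of 2.14% to 2.51% and median percentiles of 19.3 to 28.5. Without PMSG replicate 1 or 2 there were 2793 and 2781. Chosen after seeing the data, equal lists without WT replicate 1 gave 4742. The median percentile, 24.2 in the main setting, was 37.6 from a −log10 q of 20 upwards, 25 with merging within 500 bp and 16.8 when ranked by −log10 q. Within 5 kb of a gene end the share was 11.6%, and the share of other PMSG-held regions at that distance was not computed. Counting each region for its nearest gene alone gave 12 of 347 (3.46%) for the pre-surge list, 7 of 191 (3.66%) for LH-induced, 14 of 248 (5.65%) for TGF-beta and BMP, 3 of 172 (1.74%) for Wnt and Hippo, 8 of 243 (3.29%) for FSH signalling and 28 of 371 (7.55%) for adhesion and guidance. No paired analysis was possible because the results come from no test, and the labels do not say that a replicate number marks a shared litter, batch or day. Read depth, which sets which weak peaks are called, is unknown.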
